A study of Mus musculus with 15 samples.

Results

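The cells described here are the dividing cells of the class that the authors deposited as neuroblast, in single-cell RNA sequencing of the mouse striatum. A neuroblast was counted as cycling when its raw counts of unique molecular identifiers (UMIs, 1 per captured RNA molecule) for Top2a, Pclaf, Rrm2, Ube2c, Birc5 and Cenpf summed to 3 or more. By this rule 132 of 709 neuroblasts were cycling, or 18.6%, out of 5581 cells in all, so they made up 2.37% of the cells. They came from 14 of 15 mice, and olanzapine 3 alone gave 28.0% of them. The 6 genes chose the cells, so their values are given as a description and support nothing.

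Neuroblasts are the migrating daughters of neural stem cells that line the lateral ventricle, beside the striatum. Quiescent stem cells resemble astrocytes, activated ones divide as transit-amplifying progenitors that express Egfr, and these give rise to Dlx-expressing neuroblasts that can still divide before they leave the cell cycle. A dividing cell copies its DNA in S phase, with helicases, polymerases and a supply of nucleotides, and then separates its chromosomes in mitosis, with a spindle, kinetochores and a cytokinetic ring.

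The mice were C57BL/6J males, bought at 8 weeks of age, habituated for about 1 week and then treated for 28 to 29 days. Haloperidol, a first-generation antipsychotic and dopamine receptor antagonist, was given to 5 mice from implanted pellets. Olanzapine, a second-generation drug with affinity for serotonin and dopamine receptors, was given to 5 mice in food, and 5 mice received placebo. Drug and route of delivery therefore differed together. Each mouse was a separate library, from coronal slices that were triturated and cleared of dead cells. The 5581 cells held 18826661 UMIs over 15932 genes, 241677 to 4329163 per mouse, with a median of 2746 per cell.

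The libraries of 3 placebo mice shared cell barcodes. Placebo 5 shared 110 barcodes with placebo 3 and 101 with placebo 2, which is 211 of its 514 cells (41.1%), 40.4% of placebo 3 and 60.8% of placebo 2. Of these barcodes, 109 and 101 carried the same cell class in both libraries, at a median UMI ratio of 0.308 and 0.328 in placebo 5 over the other library. None of the other pairs among the 105 pairs of libraries shared more than 2. Leaving the 211 cells out of placebo 5 removes 25 neuroblasts, 2 of them cycling. The cycling shares are given with and without them, and gene results are given with them unless stated.

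The summed count of the 6 genes split the neuroblasts widely. It was 0 in 543 cells, 1 in 26 and 2 in 8, then 3 in 11 and 4 in 2, and the cycling cells had a median of 32.5 (quartiles 11.5 and 61, highest 113). The cells next to the threshold had like depths, with a median of 4382 UMIs in those with a sum of 3 and 3700.5 in those with a sum of 2. All 6 genes were detected in 58 cycling cells, at least 4 in 96 and only 1 in 4. Pclaf, which encodes a clamp-associated factor of DNA replication, was the most widely detected, in 90.2% of cycling and 1.56% of other neuroblasts. Top2a, the topoisomerase that untangles chromosomes, was detected in 79.5% and 0.520%, and Rrm2, a subunit of ribonucleotide reductase, in 75.8% and 1.73%. Birc5 (survivin, of the chromosomal passenger complex) was detected in 75% and 1.04%, Ube2c, a ubiquitin-conjugating enzyme of mitotic exit, in 72.7% and 1.39%, and the kinetochore gene Cenpf in 68.2% and 0.867%.

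**Figure D1:**
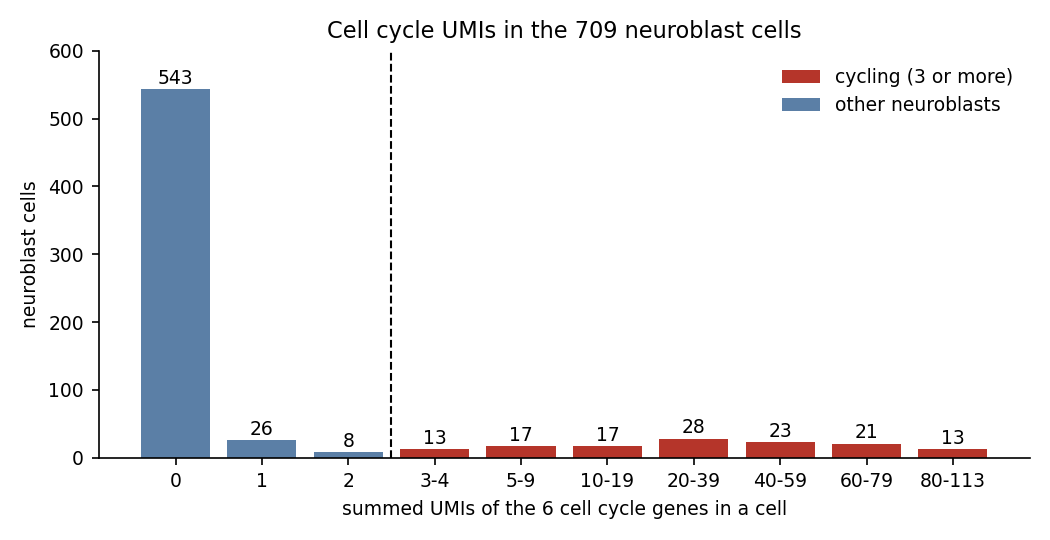
Number of neuroblasts (vertical axis) by the summed raw UMIs of the 6 genes in a cell (horizontal axis, in bins), with the threshold of 3 as a dashed line. Cycling cells (132, red) spread from 3 to 113 UMIs, whereas 543 of the other neuroblasts (blue) had none.

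The level of the 6 genes varied between mice. Levels are in CPM, the UMIs of a gene per 1000000 UMIs of the summed cells. In the cycling cells of the 10 mice with at least 5 of them, Pclaf ranged from 1021 over a median of 1321 to 1743. Top2a ranged from 463 in haloperidol 3 over a median of 949 to 1678 in haloperidol 1. Cenpf spanned the widest range as a ratio of highest to lowest, from 209 in placebo 5 over a median of 565 to 1365 in haloperidol 5. Ube2c lay between 529 and 1483 (median 942), Rrm2 between 356 and 988 (median 662) and Birc5 between 348 and 696 (median 520). By the same ratio the levels of Pclaf, Rrm2 and Birc5 stayed closer together across mice than those of Cenpf and Top2a.

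The promoters of 4 of the 6 genes are shown because their products act at different stages of the cycle and their sequences can be compared. Promoters of genes expressed in late cycle are known to carry CCAAT boxes, bound by NF-Y, and a cell cycle homology region (CHR), bound by the DREAM and MuvB complexes. S phase promoters often carry E2F sites. Each line gives the 160 bases before the transcription start of the promoter entry, 5′ to 3′ on the gene's own strand, from RefSeq in build GRCm38.p6. The places are chr11:99024190-99024349 (minus strand) for Top2a, chr2:164769769-164769928 (plus) for Ube2c, chr1:189688087-189688246 (minus) for Cenpf and chr9:65890163-65890322 (plus) for Pclaf. The gene entries of Top2a and Cenpf reach to 99024199 and 189688107, so the last bases of their lines lie inside the annotated gene. Capitals mark CCAAT and the CHR (TTTGAA or TTCGAA) on either strand, so that ATTGG and TTCAAA are their reverse complements.
Top2a: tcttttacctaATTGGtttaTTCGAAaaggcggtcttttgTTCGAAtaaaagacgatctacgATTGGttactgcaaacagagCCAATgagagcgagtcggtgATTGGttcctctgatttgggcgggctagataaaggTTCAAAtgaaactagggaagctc
Ube2c: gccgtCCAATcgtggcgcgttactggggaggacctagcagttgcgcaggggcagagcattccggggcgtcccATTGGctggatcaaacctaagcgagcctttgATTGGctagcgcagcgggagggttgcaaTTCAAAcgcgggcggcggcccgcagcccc
Cenpf: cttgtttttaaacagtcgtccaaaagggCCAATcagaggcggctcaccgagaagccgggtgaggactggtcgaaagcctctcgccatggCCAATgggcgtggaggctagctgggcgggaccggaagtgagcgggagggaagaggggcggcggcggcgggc
Pclaf: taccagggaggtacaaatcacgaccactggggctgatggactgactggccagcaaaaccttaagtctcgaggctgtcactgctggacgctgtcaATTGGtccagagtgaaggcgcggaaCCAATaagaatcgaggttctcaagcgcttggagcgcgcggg
In this window Top2a and Ube2c held both motifs, Cenpf and Pclaf CCAAT only.

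Over the 250 bases before the start, CCAAT was found in 5 of the 6 promoters, all but that of Birc5, and the CHR in 2 (Top2a and Ube2c). The third motif searched, an E2F site written TTTGGCGC or TTTCGCGC, was in 0 of 6. The promoter of Birc5, which is not shown, thus held none of these motifs. TTCGAA is its own reverse complement and was counted as 1 place, and in Ube2c a CCAAT overlaps an ATTGG upstream of the bases shown. Of the 11894 genes of the table with a promoter entry, 39.9% held CCAAT, 15.0% the CHR and 1.36% the E2F site. By promoter, the shares were 34.7%, 12.5% and 1.11% of 15229. Among 38 genes of the replication lists used below with an entry, 60.5% held CCAAT, 18.4% the CHR and 15.8% the E2F site. Among 57 genes of the spindle, kinetochore and cytokinesis lists the shares were 64.9%, 35.1% and 3.51%, and among 13 neuroblast maturation genes 69.2%, 23.1% and 0%. These are matches of letters, not sites shown to be bound.

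Cells that met the same threshold were rare elsewhere. Of 144 such cells, 132 were neuroblasts and 9 were astrocytes, 5 of these in olanzapine 3. The classes labelled olig precursor, oligodendrocyte and other held 1 each. None of 895 microglia and none of 988 neurons met it, which allows shares of up to 0.335% and 0.304%. Pooled over all cells of a class, the 6 genes summed to 5070 CPM in cycling neuroblasts, 29.7 in other neuroblasts, 28.4 in astrocytes and 2.49 in microglia. The other classes lay between these last values, at 8.27 to 20.7. A sum of 1 or 2 UMIs occurred in 34 of 577 other neuroblasts, 43 of 988 neurons and 8 of 895 microglia, at median depths of 2271, 3306.5 and 3430 UMIs. The 9 astrocytes over the threshold had 2125 CPM of the glutamate transporter gene Slc1a3, against 169 CPM in cycling neuroblasts and 2584 CPM in all astrocytes. Their level of Aldoc, an astrocyte marker, was 1186 CPM, against 66.7 and 4435 CPM. They also held 198 CPM of Dlx1 (in 3 cells), 98.8 CPM of Dlx2 (in 1 cell) and 247 CPM of Egfr (in 2 cells). All astrocytes had 4.13, 7.56 and 30.5 CPM of these genes, and cycling neuroblasts 584, 696 and 40.5 CPM. Sox11 was at 49.4 CPM in them and 54.6 CPM in all astrocytes.

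The class label was checked against lineage markers. Dlx2, a homeobox gene of inhibitory neuron precursors, had 696 CPM in cycling and 866 CPM in other neuroblasts, and at most 7.56 CPM in any other class. Sox11, of immature neurons, had 1828 and 1782 CPM, and at most 108 CPM elsewhere. Both groups thus carried the lineage genes of the class. The astrocyte genes Aqp4 and Aldh1l1 and the myelin gene Mog had 0 UMIs in cycling cells. None of the 132 cells was called a doublet or passed 20% mitochondrial UMIs. Doublet calls were uneven between mice, with 38 of 81 in the 128 cells of olanzapine 2 and 0 in olanzapine 4, placebo 4 and placebo 5.

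Cycling cells were deeper than other neuroblasts. They had a median of 6921.5 UMIs and 2542 genes per cell, against 2271 UMIs and 1222 genes, and in the 10 mice compared the ratio of median UMIs was 2.23 to 5.20. The mitochondrial share was 2.27% in cycling and 1.89% in other neuroblasts. Cells were also thinned to 2000 UMIs each, which left out shallower cells, among them 6 of 132 cycling and 223 of 577 other neuroblasts. Of the 126 cycling cells left, 104 (82.5%) still held 3 or more UMIs of the 6 genes, a description that uses the same values as the rule. A deep cell passes a UMI threshold more easily, and the part of depth in the choice of cells was not tested. Gene levels below are therefore in CPM. Calls are also given after thinning, where the rule was applied to the thinned cells and 9 mice had enough of them. Cells that fell below 3 UMIs were then no longer counted as cycling. Fold changes and calls after thinning thus differ from the main ones in the cells compared as well as in depth, and the part of each was not tested.

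Expression in cycling neuroblasts was compared with that in the other neuroblasts of the same mouse, over 10 mice (haloperidol 1, 3, 4 and 5, olanzapine 3, 4 and 5, placebo 1, 4 and 5) and 122 cycling cells. With the 6 genes left out of the calls, 1123 genes had enough counts. At an adjusted p under 0.05, 320 were higher in cycling cells (28.5% of those tested) and 281 lower (25.0%), with a median log2 fold change of 0.04. After thinning to 2000 UMIs, 75 were higher and 73 lower. Of the genes called without thinning, 141 higher and 141 lower genes differed in the same direction in all 10 mice. The count filter kept few cycle genes, so lists are described by a second fit of all 13922 genes with a count in these sums, in which 1021 were called higher (7.33%) and 1206 lower (8.66%). That fit gave nearly all genes 1 shared spread, and DESeq2 called 696 and 623 on the same counts. For genes in the second fit alone, values are therefore given with the SE or as UMIs, over the same 10 mice, and without p. Counts of cell cycle lists describe cells chosen by 6 genes of the same programme and are not independent evidence.

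**Figure D2:**
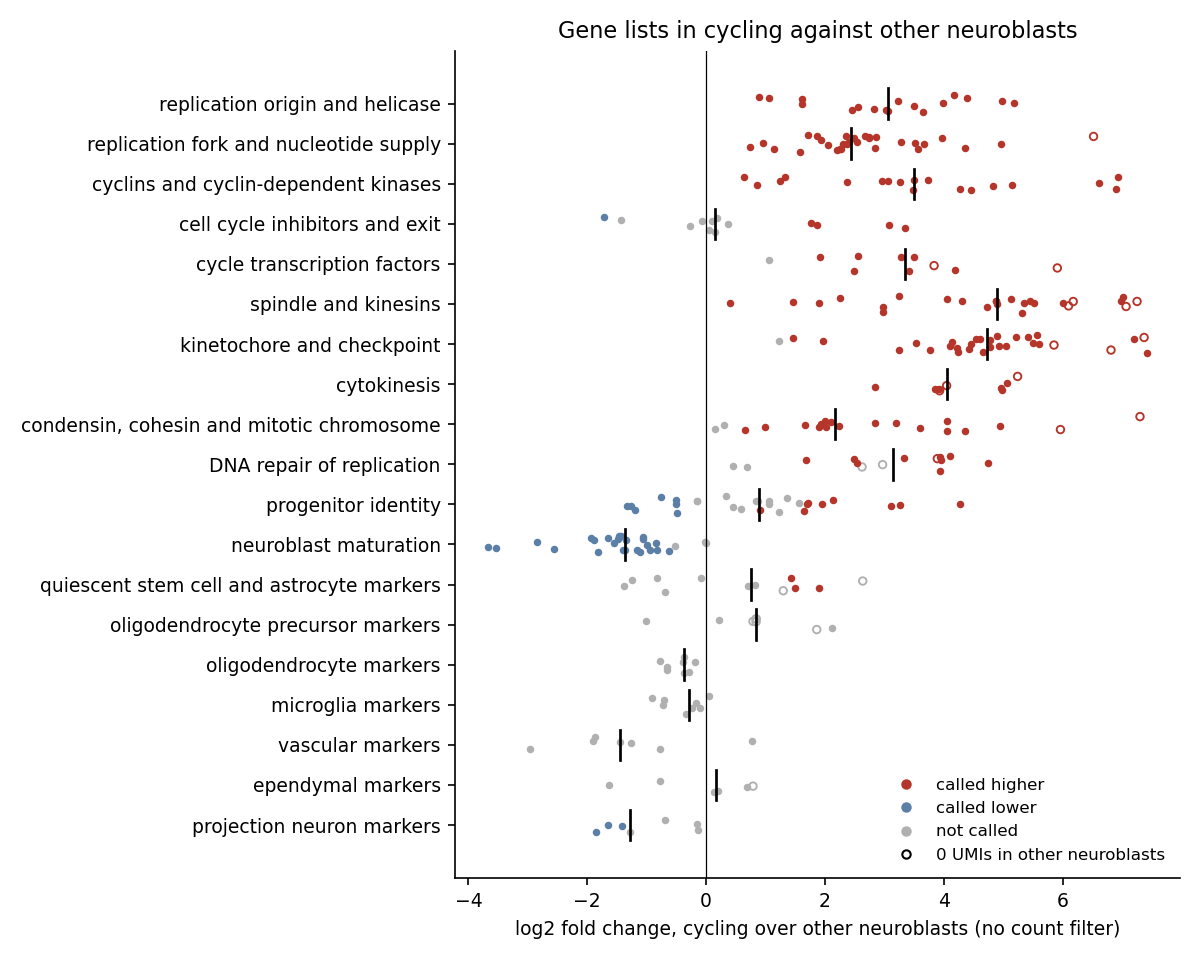
Log2 fold change of every list gene, cycling over other neuroblasts, in the fit without a count filter (horizontal axis), by list (vertical axis). Each point is a gene, open points had 0 UMIs in other neuroblasts, and black ticks mark list medians, which are 2.17 to 4.89 in the replication, cyclin, transcription factor, mitosis and repair lists and -1.37 for neuroblast maturation.

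Replication genes were higher in cycling cells in the fit without a filter. All 17 genes tested for origins and the helicase were called (median log2 fold change 3.06), 16 of them by DESeq2, and 8 were called after thinning. All 30 of the replication fork and nucleotide supply were called (median 2.44), 26 by DESeq2 and 16 after thinning. Dut (chr2:125247248-125259049), the enzyme that clears dUTP, was the only fork gene to pass the count filter. Its level was 294 to 933 CPM in cycling cells (median 755), against 47.7 to 187 CPM in the other neuroblasts (median 99.2). The ranges did not overlap, and Dut was 2.80 ± 0.17 higher on the log2 scale (SE, n = 10 mice, edgeR adjusted p = 3.9e-15). Mcm7, a helicase subunit, had 58.9 to 378 CPM in cycling cells against 29.4 to 254 CPM, was higher in 9 of 10 mice and differed by 1.11 ± 0.19 (adjusted p = 6.98e-06), with overlapping ranges.

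The scarcer replication genes named next have the largest fold changes of their lists in the fit without a filter. Gmnn, which encodes geminin, an inhibitor of relicensing, had 99.3 to 224 CPM in cycling cells (median 169), against 0 to 35.7 CPM (median 0), a log2 fold change of 5.18 ± 0.41 (SE, higher in 10 of 10 mice). The helicase genes Mcm3 and Cdc45 differed by 4.98 ± 0.41 (9 mice) and 4.39 ± 0.55 (10 mice). Clspn (claspin, a checkpoint mediator) and Rpa1 (single-strand binding) differed by 4.97 ± 0.53 and 4.35 ± 0.49. After thinning, with the rule applied to the thinned cells, these 5 genes were still called. Their log2 fold changes were then smaller, at 2.34 for Gmnn, 2.48 for Mcm3, 2.81 for Cdc45, 2.63 for Clspn and 2.89 for Rpa1. Tk1, thymidine kinase of the salvage pathway, had 101 UMIs in cycling cells and 0 in the others, at least 43.5-fold higher against a limit of 3 UMIs over the group, and was not called by DESeq2.

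All 18 genes of cyclins, their kinases and regulators were called higher, with a median log2 fold change of 3.50, 15 by DESeq2 and 11 after thinning. Ccna2 (cyclin A2, chr3:36564865-36573038), which acts from S phase into mitosis, had 175 to 491 CPM in cycling cells (median 349), against 0 to 15.9 CPM (median 0). It was at 0 in the other neuroblasts of 8 of 10 mice, and differed by 6.94 ± 0.32 (SE, n = 10, adjusted p = 1.34e-18). Ccnb1, the mitotic cyclin B1, differed by 6.64 ± 0.36, and the kinase subunits Cks2 and Cks1b by 5.18 ± 0.26 and 3.78 ± 0.19. In the fit without a filter, Cdk1, the kinase of cyclin B1, differed by 6.93 ± 0.38. Ccnd2, the D-type cyclin that responds to growth signals, was abundant on both sides, with 3551 to 5840.1 CPM in cycling cells (median 4088) against 1724 to 3728 CPM (median 2676). Its ranges overlapped, it was higher in 10 of 10 mice, and the difference was 0.70 ± 0.15 (adjusted p = 0.00103).

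Transcription factors of the cycle were scarce. Without the filter 9 of 10 were called higher, among them Mybl2, of the MuvB complex, by 4.19 ± 0.63, and E2f3 by 3.50 ± 0.70. After thinning to 2000 UMIs 1 of 10 was called. Foxm1, a mitotic activator, had 63 UMIs in cycling cells and 0 in the others, at least 27.1-fold higher, and E2f8, a repressor, 15 and 0, at least 6.46-fold higher. Lin54, a DNA-binding subunit of MuvB, was not called, with 27 and 15 UMIs.

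The mitosis lists had the highest medians without the filter. All 25 spindle genes were called higher (median log2 fold change 4.89), with 29 of 30 kinetochore and checkpoint genes (median 4.72) and 9 of 9 cytokinesis genes (median 4.05, DESeq2 called 5). After thinning 21, 27 and 6 of these were called. Spc25, a subunit of the NDC80 kinetochore complex, had 238 to 647 CPM in cycling cells (median 341), against 0 to 8.88 CPM (median 0), and differed by 7.46 ± 0.34 (SE, n = 10, adjusted p = 1.34e-18). The spindle midzone and assembly genes Prc1, Nusap1 and Tpx2 differed by 7.06 ± 0.31, 7.02 ± 0.33 and 6.04 ± 0.31, and Tubb4b, a tubulin, by 3.03 ± 0.17. Spc24, Cenpa (the centromeric histone) and Cdca8 (borealin) differed by 5.55 ± 0.31, 5.48 ± 0.29 and 4.82 ± 0.25. Securin, encoded by Pttg1, was the member not called, with 33 UMIs in cycling cells and 16 in the others.

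Cytokinesis was led in counts by Racgap1, of the centralspindlin complex, at 235 to 579 CPM in cycling cells against 0 to 20.9 CPM, a difference of 5.01 ± 0.26 (adjusted p = 5.01e-17). Spag5 and Ect2 differed by 5.06 ± 0.63 and 4.98 ± 0.63, and Cep55, of abscission, had 42 UMIs against 0, at least 18.1-fold higher. Of 20 genes of condensin, cohesin and mitotic chromosomes, 18 were called higher (median 2.17), and 15 after thinning. Hmgb2 (chr8:57511843-57515999), a DNA-bending protein, was the most abundant of those named, with 3019 to 5532 CPM in cycling cells (median 4245), against 82.0 to 577 CPM (median 125). Its ranges did not overlap and it differed by 4.41 ± 0.29 (adjusted p = 3.76e-07). The proliferation marker Mki67 differed by 5.00 ± 0.28, the histone variant H2afx by 4.11 ± 0.18 and the condensin subunit Smc2 by 3.65 ± 0.21. The cohesin subunit Smc3, which acts in cells outside division as well, had 154 to 467 CPM against 147 to 376 CPM and was not called (0.20 ± 0.16, adjusted p = 0.301).

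Repair genes of replication were called higher in 10 of 14 cases without the filter (DESeq2 called 7, thinned counts 5). The exonuclease gene Exo1 and the chromatin ATPase gene Atad2 differed by 4.11 ± 0.79 and 3.95 ± 0.38.

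Inhibitors of the cycle did not move as a group: of 13, 4 were called higher and 1 lower without the filter, with a median log2 fold change of 0.15. Btg1, an antiproliferative gene, was the lower one, with 373 to 1354 CPM in cycling cells (median 540.4) against 1338 to 2503 CPM (median 1929.7). It was lower in 10 of 10 mice and differed by -1.67 ± 0.11 (SE, adjusted p = 5.9e-14). The kinase inhibitor genes Cdkn2c and Cdkn2d were higher by 3.09 ± 0.28 and 1.87 ± 0.24, and Rbl1 (p107) by 3.35 ± 0.89 on 18 UMIs against 1. After thinning, 1 of the 4 was still called higher, and Cdkn2d and Rbl1 were not. Cdkn1b (p27) had 33.8 to 294 CPM in cycling cells and 62.7 to 196 CPM in the others, and was not called (-0.03 ± 0.20, adjusted p = 0.913).

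**Figure D3:**
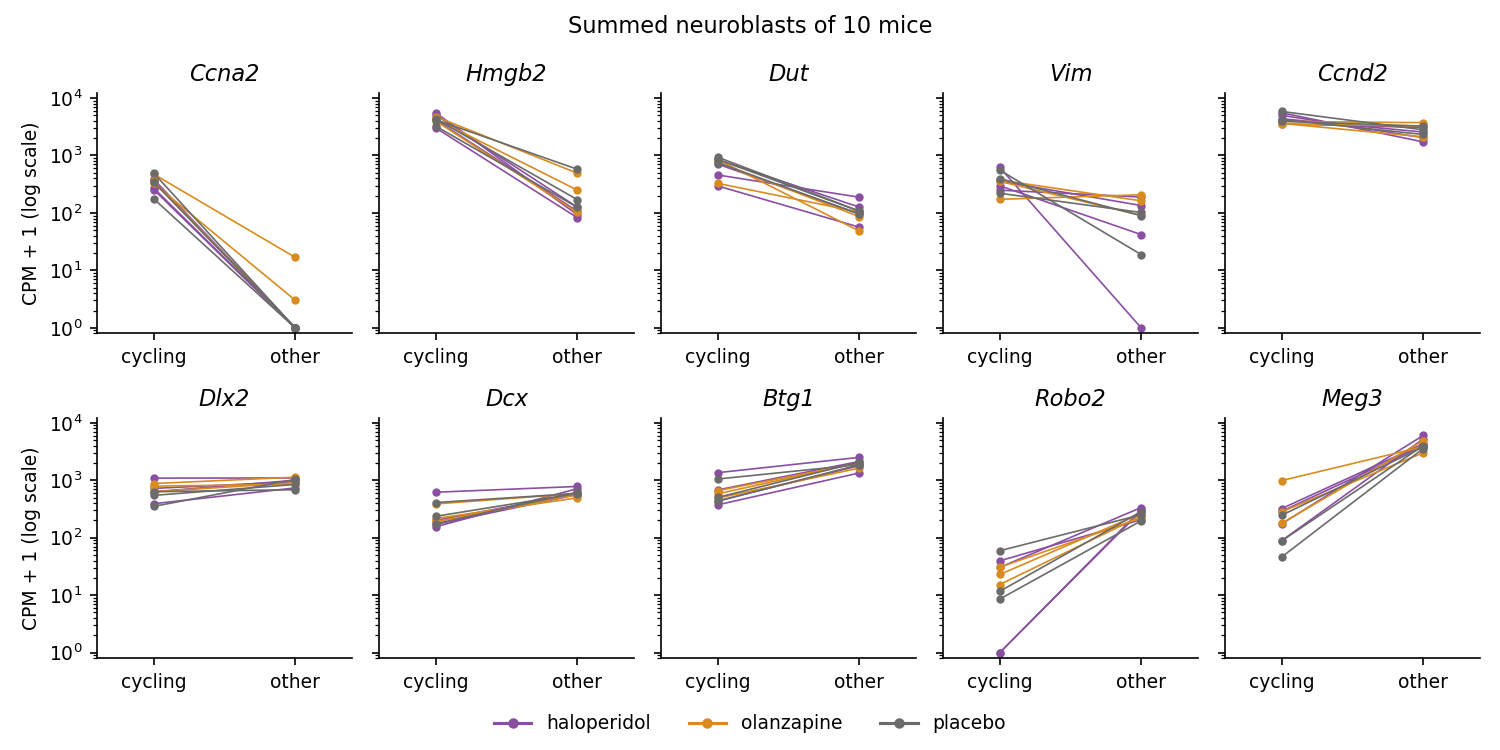
CPM + 1 (vertical axis, log scale) of 10 genes in the summed cycling and other neuroblasts of each of 10 mice (horizontal axis), joined by a line per mouse and coloured by treatment. Ccna2, Hmgb2 and Dut were higher in cycling cells in all 10 mice, Dcx, Btg1, Robo2 and Meg3 lower in all 10, and Vim was higher in 9.

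Progenitor genes went both ways. Of 28, 9 were called higher and 7 lower without the filter (median log2 fold change 0.89), and 3 and 3 after thinning. Egfr, Insm1, Fabp7, Notch1, Dlx1, Dcx, Tubb3, Ccnd2 and Cdk1 were singled out after their values were seen. The intermediate filament gene Vim had 172 to 618 CPM in cycling cells against 0 to 206 CPM, was higher in 9 of 10 mice and differed by 1.75 ± 0.35 (adjusted p = 0.00124). The ranges overlapped, and olanzapine 5 was the mouse in which it was lower. Hes6 differed by 0.95 ± 0.17 (adjusted p = 1.98e-05), and Insm1, of dividing neuronal precursors, by 2.14 ± 0.30 (1.32 and not called after thinning).

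Egfr, the receptor for epidermal growth factor, was sparse, with 39 UMIs in cycling cells and 13 in the others. It was higher in 6 and lower in 2 of 10 mice (1.72 ± 0.49) and was not called by DESeq2 or after thinning. DESeq2 called 7 of the 28 progenitor genes higher and 5 lower. Of other members called higher without the filter, Fabp7 had a median of 177 CPM in cycling cells against 15.7 CPM. Notch1 had a median of 73.0 CPM against 16.9 CPM, and the ranges of both genes overlapped. The factors of the inhibitory lineage were lower in cycling cells: Dlx2 by -0.46 ± 0.12 (adjusted p = 0.00143; not called after thinning), Dlx1 by -0.44 ± 0.11 (adjusted p = 0.00148) and Sp9 by -1.29 ± 0.19 (adjusted p = 1.7e-06). Dlx2 had 349.9 to 1089 CPM in cycling cells against 684 to 1130.03 CPM, so the ranges overlapped although all 10 mice went the same way. Id4, a gene of quiescent progenitors, had 112 and 147 UMIs and was not called.

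Neuroblast maturation genes were lower as a list. In the filtered fit 19 of 21 tested were lower and none higher (median log2 fold change -1.31), and without the filter 24 of 27, with 22 after thinning. The median over all tested genes was 0.04 and -0.13. Robo2 (chr16:73891976-75447443), a Slit receptor of migrating neurons, had 0 to 58.3 CPM in cycling cells (median 18.1) against 195 to 334 CPM (median 256), with no overlap, and differed by -3.62 ± 0.26 (adjusted p = 1.61e-13). Meis2, Stmn2 and Celf4 differed by -1.88 ± 0.13, -1.83 ± 0.11 and -1.77 ± 0.19, each with no overlap between the groups. Dcx (doublecortin, chrX:143855842-143933396), which defines neuroblasts, had 154 to 618 CPM in cycling cells (median 207) against 492 to 779 CPM (median 586). It was lower in 10 of 10 mice, by -1.31 ± 0.15 (adjusted p = 1.22e-08), and Tubb3, the neuronal tubulin, by -1.35 ± 0.16 (adjusted p = 7.37e-06). Stmn1, which acts on microtubules in dividing and migrating cells alike, was not called, at 5637 to 8174 CPM in cycling cells and 5395 to 7853 CPM in the others (0.07 ± 0.07, adjusted p = 0.457).

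Markers of other cell types did not separate the groups in most lists. None of 8 oligodendrocyte precursor, 8 oligodendrocyte, 8 microglia, 7 vascular or 6 ependymal markers tested was called, with or without thinning. Their summed levels were 84.9, 88.0, 82.9, 5.06 and 9.10 CPM in cycling cells, and 61.6, 102, 113, 30.4 and 11.3 CPM in the others. Of 7 projection neuron markers, Penk, Ppp1r1b and Pde10a were called lower in the fit without a filter, 1 of them without olanzapine 3, and none by DESeq2 or after thinning. Of 12 stem cell and astrocyte markers, 3 were called higher: Mfge8 by 1.91 ± 0.21, and the glutamate transporter genes Slc1a3 by 1.49 ± 0.23 and Slc1a2 by 1.43 ± 0.26. None of the 3 was called after thinning, where Slc1a2 had the opposite sign (-0.47). The sum of the 12 was 386 to 4560 CPM per mouse in cycling cells (median 1025) and 147 to 1791 CPM in the others (median 375), with Apoe at 88.3 to 2835 CPM against 41.8 to 1057 CPM and not called (adjusted p = 0.223). The part of astrocyte RNA in these values was not tested.

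Outside the lists, genes were taken by fold change. Pbk, a mitotic kinase, was higher by 7.60 ± 0.31 (SE), with 283 to 679 CPM in cycling cells (median 472), against 0 to 13.4 CPM (median 0). Lockd, a long noncoding RNA gene downstream of Cdkn1b, was higher by 3.14 ± 0.36 (adjusted p = 1.34e-05). The histone gene Hist1h2ap was higher by 3.59 ± 0.23, with 4718 CPM in haloperidol 1 and at most 832 CPM in the other mice, and belongs to a family of near-identical copies that share reads. Anp32b and Dek, chromatin proteins, were higher by 2.70 ± 0.16 and 2.67 ± 0.16, and Odc1, which starts polyamine synthesis, by 2.52 ± 0.18. Dbi, an acyl-CoA-binding protein, and Mdk, the growth factor midkine, were higher by 2.57 ± 0.15 and 2.31 ± 0.16, with Tpm4 and Clic1 at 2.28 ± 0.19 and 2.27 ± 0.23. All 10 were higher in 10 of 10 mice.

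Genes lower in cycling cells outside the lists were taken in the same way. Meg3 (chr12:109540996-109571729), a maternally expressed noncoding RNA, had 45.4 to 988 CPM in cycling cells (median 212) against 3009 to 6023 CPM (median 4016), and differed by -4.08 ± 0.36 (SE, adjusted p = 4.69e-06). Adarb2, an RNA-editing family member, had 0 to 58.3 CPM against 205 to 641 CPM and differed by -4.67 ± 0.26 (adjusted p = 2.33e-16). Neither gene's ranges overlapped. The transcription regulators Runx1t1 and Pbx3 differed by -3.29 ± 0.25 and -3.24 ± 0.21, and the axonal gene Islr2 by -3.11 ± 0.21. Ly6h and Stmn4 differed by -2.98 ± 0.29 and -2.83 ± 0.16, and Gng3, Aplp1 and Rbfox2 by -2.25 ± 0.17, -2.15 ± 0.20 and -1.89 ± 0.18. All 10 were lower in 10 of 10 mice, with no overlap between the groups.

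Cycling cells differed among themselves in their balance of replication and mitosis genes. Per 10000 UMIs, the 47 replication genes had a median of 60.5 UMIs in cycling cells (quartiles 28.2 and 99.9), against 10.6 in other neuroblasts. For 62 mitosis genes (the spindle, kinetochore and cytokinesis lists with Ccnb1 and Ccnb2, without 4 genes of general microtubules) the medians were 84.8 (quartiles 28.7 and 130.1) and 2.01. Mitosis UMIs exceeded replication UMIs over 2-fold in 48 cells, the reverse held in 35, and 49 lay between. Over the 132 cells the correlation was negative (Pearson r = -0.404, Spearman rho = -0.354). It is given as a description because the cells share libraries and the levels share a denominator. The rule also sums genes of both stages and leaves out cells low in both, which can by itself lower a correlation among the chosen cells. The part of this choice was not tested.

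**Figure D4:**
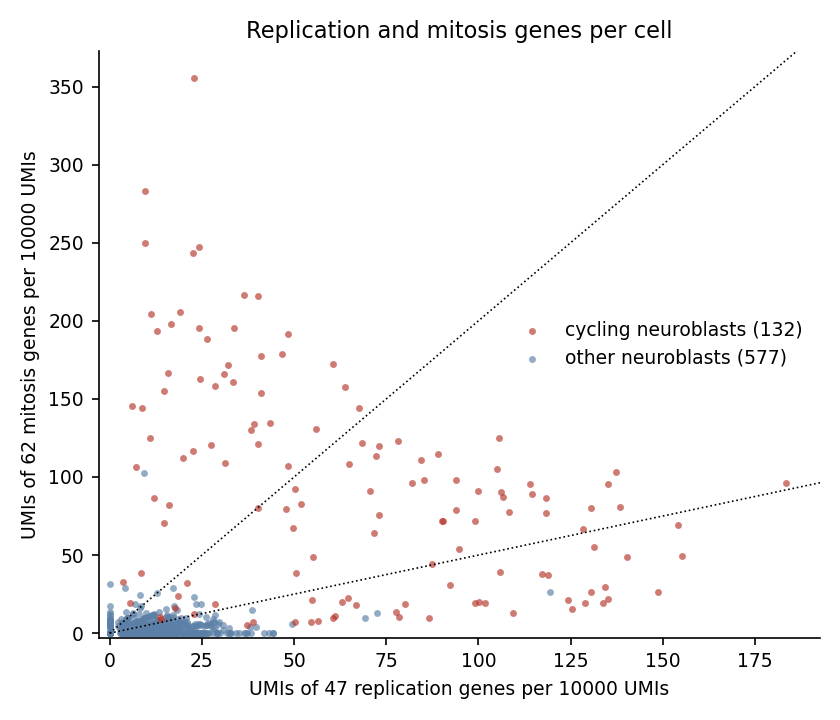
UMIs of 62 mitosis genes (vertical axis) against UMIs of 47 replication genes (horizontal axis), both per 10000 UMIs of the cell, in 132 cycling (red) and 577 other neuroblasts (blue). Dotted lines mark a 2-fold excess of either, and 48 and 35 cycling cells lie beyond them on the mitosis and replication side.

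Across the 709 neuroblasts, the genes most like the summed 6 genes by Pearson correlation of log2(CPM + 1) were Pbk (r = 0.794), Spc24 (0.769), Cdk1 (0.765), Prc1 (0.752) and Racgap1 (0.745). Cks2 (0.742), Tpx2 (0.740), Hmgb2 (0.738), Lockd (0.732) and Spc25 (0.729) followed. Neighbours in this order differ by little, and cells of a mouse share a library. Hmgb2 was detected in 261 of the neuroblasts and Lockd in 173, more than the 84 to 115 of the other 8 genes.

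The cycling share of neuroblasts was then compared between treatments. It was 24%, 16.7%, 26.2%, 23.4% and 17.6% in haloperidol 1 to 5. In olanzapine 2 to 5 it was 15.8%, 16.8%, 21.6% and 27.0%, and in placebo 1 to 5 it was 20%, 16.7%, 3.85%, 18.2% and 17.1%. Olanzapine 1 had 0 of 8 neuroblasts and was left out for having fewer than 10. The groups overlapped, and placebo 3, with 1 of 26, was the lowest of the mice compared. Counts of neuroblasts were small, 12 to 75 per mouse outside olanzapine 3 with 220, so that the 95% exact binomial interval of haloperidol 2 (2 of 12) ran from 2.09% to 48.4%.

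**Figure D5:**
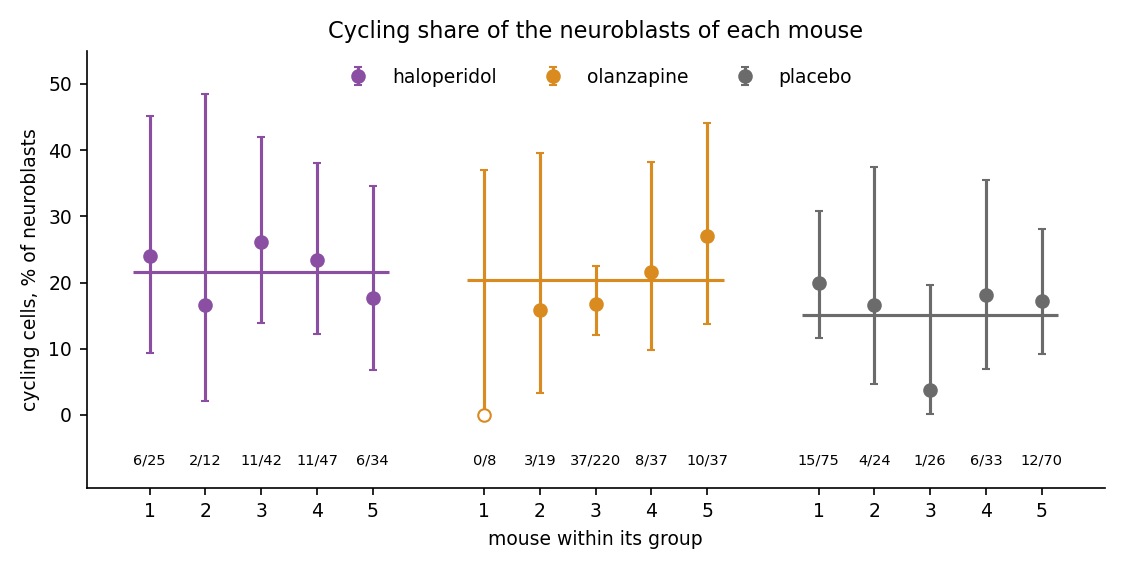
Cycling cells as a percentage of the neuroblasts of each mouse (vertical axis) for haloperidol, olanzapine and placebo mice (horizontal axis). Bars are 95% Clopper-Pearson intervals, which cover counting error only, horizontal lines are group means (21.6, 20.3 and 15.2), and the open point is olanzapine 1, left out of the mean and the tests.

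No difference in this share passed the test. It averaged 21.6% ± 4.18 with haloperidol and 15.2% ± 6.46 with placebo (SD, n = 5 each), a difference of 6.41 points (exact two-sided permutation p = 0.0952, adjusted over 6 tests 0.5). With olanzapine it averaged 20.3% ± 5.15 (SD, n = 4), 5.15 points over placebo (exact p = 0.270, adjusted 0.5), and haloperidol lay 1.27 points over olanzapine (exact p = 0.667, adjusted 0.786), or -0.241 without olanzapine 2 and 3.51 without olanzapine 5. The smallest p these designs allow is 0.00794 for 5 against 5 mice and 0.0159 for 5 against 4. Without placebo 3 the differences from placebo were 3.58 and 2.32 points. Without the shared barcodes of placebo 5, the placebo mean was 16.2% and the differences were 5.40 points (exact p = 0.183) for haloperidol and 4.13 (exact p = 0.429) for olanzapine.

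Of all cells, 2.81% ± 1.16 with haloperidol, 1.86% ± 1.16 with olanzapine and 2.04% ± 1.09 with placebo were cycling neuroblasts (SD, n = 5 each). The differences were 0.769 points for haloperidol over placebo (exact permutation p = 0.333), -0.175 for olanzapine over placebo (p = 0.786) and 0.944 for haloperidol over olanzapine (p = 0.294). With 1 mouse left out, the first fell to 0.280 and the last to 0.455, both without haloperidol 1, and the second ran from -0.592 without placebo 3 to 0.290 without olanzapine 1. Without the shared barcodes of placebo 5, the difference from placebo was 0.576 points for haloperidol (exact permutation p = 0.476) and -0.368 for olanzapine (exact permutation p = 0.611). After thinning to 2000 UMIs, which left out 58, 91 and 80 shallow neuroblasts of haloperidol, olanzapine and placebo mice, the neuroblast shares averaged 25.0% over 4 mice, 21.5% over 4 and 19.8% over 5 (exact p = 0.508 and 0.857 against placebo).

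Gene expression within cycling cells was compared over 4 haloperidol, 3 olanzapine and 3 placebo mice and 1433 genes. At an adjusted p under 0.05, edgeR called 0 genes (0%) in each of the 3 comparisons, as did DESeq2. Unadjusted p-values under 0.05 numbered 81 for haloperidol against placebo, 28 for olanzapine against placebo and 54 for haloperidol against olanzapine. The smallest adjusted p-values were 0.849, 0.998 and 0.999. The comparisons with placebo share their 3 placebo mice, so their values are set side by side only.

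The genes with the smallest p for haloperidol against placebo included ribosomal protein genes. Rps12 had 1230, 1266, 1125 and 1309 CPM in haloperidol mice, 948, 952 and 1211 in olanzapine mice and 823, 793 and 816 in placebo mice (haloperidol over placebo, log2 fold change 0.60 ± 0.18 SE). Rps24 differed by 0.54 ± 0.16, with every haloperidol mouse above every placebo mouse for both genes. Cdk5r1, the neuronal activator of the kinase Cdk5, had 125, 264, 273 and 304 CPM with haloperidol and 43.7, 117 and 109 CPM with placebo (1.61 ± 0.42). Fdps, of sterol synthesis, differed by -1.56 ± 0.50, and Ilf2 by -0.88 ± 0.28. None passed adjustment (adjusted p = 0.849 for each).

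For olanzapine against placebo, Rtn1, a reticulon of the endoplasmic reticulum, had 972, 982 and 966 CPM in olanzapine mice and 590, 646 and 675 CPM in placebo mice (0.62 ± 0.22). Among cycle genes, Racgap1 had 457, 589 and 447 CPM with olanzapine and 291, 264 and 261 CPM with placebo (0.84 ± 0.29), and Cenpe, a kinetochore motor, 239, 317 and 346 CPM against 182, 88.1 and 76.2 CPM (1.18 ± 0.38). The mice of the 2 groups did not overlap for these 3 genes, chosen by their p, and the adjusted p was 0.998. Calr (1.14 ± 0.39), Gm14964 (-1.10 ± 0.39) and Thrsp (-3.64 ± 1.02) complete the 6, and Thrsp was led by placebo 1 at 503 CPM. For haloperidol against olanzapine the 6 were Ubqln2 (-1.25 ± 0.38), Echs1 (-1.30 ± 0.43), Rpl13a (0.59 ± 0.19), Uqcrc2 (-1.40 ± 0.48), mt-Nd2 (0.75 ± 0.26) and Fkbp3 (-0.73 ± 0.26), at an adjusted p of 0.999.

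The replication and mitosis lists are given for each drug without a test. Over all 1433 genes, 702 were positive for haloperidol against placebo and 711 for olanzapine against placebo, with median log2 fold changes of -0.01 and 0.00. Of 18 replication fork genes, 17 were negative for haloperidol against placebo (median -0.45) and 16 for olanzapine against placebo (median -0.22). All 6 origin genes tested were negative for haloperidol (median -0.48) and 5 of 6 for olanzapine (median -0.23). Kinetochore genes were positive in 12 of 19 cases for haloperidol (median 0.13) and 15 of 19 for olanzapine (median 0.34). Spindle genes were positive in 9 of 15 (median 0.08) and 11 of 15 (median 0.18). Condensin, cohesin and mitotic chromosome genes were positive in 11 of 15 (median 0.18) and 8 of 15 (median 0.05). Maturation genes were positive in 16 of 20 for each drug (medians 0.26 and 0.23), and none of these genes was called. In summed replication UMIs per 10000, haloperidol mice had 55.6, 62.3, 70.4 and 30.6, olanzapine mice 80.7, 48.6 and 59.5, and placebo mice 88.0, 70.2 and 83.1. In mitosis UMIs they had 111, 65.2, 86.9 and 118 with haloperidol, 99.8, 106 and 111 with olanzapine, and 105, 59.5 and 78.0 with placebo. The groups overlapped in both sums, each over 6 to 37 cells a mouse.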

How the data were processed

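The authors deposited 1 table of UMI counts per gene and cell, as whole numbers, with lines that give each cell's mouse, drug and class. Cell Ranger and Seurat with mm10 are named in the submitters' processing notes, with versions not given in the sources used here. The deposited cells had been filtered, since the fewest genes in any was 501. No cell was removed here: Scrublet (scanpy 1.11.5, Python 3.11.15) marked 81 cells (1.45%) and 23 passed 20% mitochondrial UMIs, and results without them are an alternative.

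Counts were summed per mouse over cycling and other neuroblasts, for mice with at least 5 and 10 of them. The sums were fitted in edgeR 4.0.16 (R 4.3.3) with filterByExpr, TMM and the robust quasi-likelihood F test, with the mouse as a block for cycling against other neuroblasts and 1 fit of all groups for drugs. Adjusted p-values are Benjamini-Hochberg values over all genes tested, called under 0.05. The SE is the absolute log2 fold change over the square root of F. CPM per mouse beside a fold change uses the TMM library size of its fit, and CPM of the 6 rule genes, classes and list sums uses total UMIs. Since filterByExpr kept 1123 genes, lists were also counted in the planned fit without a filter. In that fit 99.2% of genes had an infinite prior df, hence 1 shared spread. Scripts were tested on simulated counts. Mice are separate animals.

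Shares were compared by exact permutation of mice (scipy 1.17.1), adjusted over 2 measures and 3 comparisons. Intervals, limits (3 counts) and thinning cover counting error only. Alternatives were DESeq2 1.42.0, its size factors, no filter, no replicate block, other thresholds and cell minimums, thinning, cells or mice left out, and without shared barcodes, the last added after seeing the data. The members and gene lists were chosen with earlier results of these data known. Named genes were, per list, 2 to 6 members, with called members of the filtered fit taken first by fold change. Called members of the fit without a filter then filled the places left, and at least 1 member not called was taken where there was one. Outside the lists, up to 10 called genes were taken in each direction at a mean log2 CPM from 5 upwards. For each drug comparison the 6 with the smallest p were taken. Some genes that this rule names are not reported here. Mcm7 and Dut were the only members of their lists to pass the filter. The table gives no coordinates, and those printed are from RefSeq (GRCm38.p6).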

Additional observations from a re-analysis of the deposited data

Results flagged for a closer look

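Cycling shares were searched for an outlying mouse in each group, but genes in haloperidol mice only. The olanzapine and placebo groups had 3 mice each with enough cycling cells, too few for the search. Of 205 sets of 4 or 5 mice of a group, 27 (13.2%) held a mouse far from the others. In 15 of them every other mouse was at 0. Chance gives about 1 in 20 for continuous values, a rate that does not apply to such sparse counts, so nothing is read from the number. The cycling share of neuroblasts was 3.85% in placebo 3 and 16.7% to 20% in the other placebo mice.

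In the cycling cells of haloperidol mice, Hist1h2ap stood at 4718 CPM in haloperidol 1, against 385 to 794 CPM in the other 3, from 6 cells. In haloperidol 5, Dcx was at 618 CPM (others 154 to 199), Dbi at 88.3 CPM (others 745 to 820) and E2f3 at 0 CPM (others 49.7 to 51.4). Haloperidol 4 had 237 CPM of Stmn4 (others 64.2 to 88.3) and 16.9 CPM of Penk (others 0). Haloperidol 1 had 149 CPM of Gng3 (others 84.6 to 89.9) and 174 CPM of Cspg5 (others 0 to 16.9), and haloperidol 3 had 12.8 CPM of Mia (others 0).

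In the other neuroblasts of haloperidol mice, haloperidol 3 had 465 CPM of Id4 (others 20.9 to 55.6), 711 CPM of Apoe (others 41.8 to 66.8) and 54.7 CPM of Ly6c1 (others 0). Haloperidol 5 had 18.5 CPM of Dek (others 105 to 120.2) and 92.7 CPM of Mdk (others 120.2 to 125). Genes at 0 in the other 3 mice were Cdc45, Ccnb1, Cdkn2c and Mki67 at 18.5 CPM in haloperidol 5, E2f3, Nusap1 and Spc24 at 13.7 CPM in haloperidol 3, Pttg1, Spag5 and Egfr at 20.9 CPM in haloperidol 1, and Atad2 and Pbk at 13.4 CPM in haloperidol 4.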

How the results depend on the processing

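Among results for all cells, the difference between olanzapine and placebo mice in the cycling share changed sign to 0.0214 points without doublets and mitochondrial cells, 0.285 without the mice numbered 1 to 4, 0.187 without shared barcodes in all 3 libraries, 0.290 without olanzapine 1 and 0.147 without placebo 1. Leaving out 1 mouse at a time, it ran from -0.592 to 0.290, and from 0.280 to 1.09 for haloperidol against placebo and 0.455 to 1.26 for haloperidol against olanzapine. The neuroblast share differed by 3.58 to 7.64, 2.32 to 6.65 and -0.241 to 3.51 points in the same 3 comparisons. No share passed 0.05 after adjustment under any alternative. Genes higher and lower in cycling cells numbered 250 to 331 and 232 to 311 with 1 mouse left out, both lowest without olanzapine 3. They were 285 and 253 with no replicate block (mouse as the pairing), and 1021 and 1206 without the count filter. After thinning they were 75 and 73, with 9 mice, fewer UMIs and the rule applied to the thinned cells. Drug comparisons gave 0 calls with 1 mouse left out, and without the filter 1, 1 and 2 lower genes: Mt1 with haloperidol (-2.08 against placebo, -2.15 against olanzapine), Hspa5 with haloperidol against olanzapine (-1.79) and Fosb with olanzapine against placebo (-3.77, 3 UMIs against 33 in 2 of 3 placebo mice). No paired analysis was possible because the drug groups share no mouse number. Of 91 named genes (Fabp7 and Notch1 were not among them), 68 kept their direction and call under each alternative that gave them a value. The 90 with a value without the shared barcodes of placebo 5 all kept both there. Thinning gave one for 50 of the 91, 28 of them among the 68, and 13 of the 50 lost their call. Signs changed for genes not called: Cdkn1b (0.053 by DESeq2, 0.000496 without doublets, -0.13 to 0.064 with 1 mouse left out), Id4 (0.025 at 5 or more against 0 UMIs, -0.34 to 0.027 with 1 mouse left out), Cspg5 (-0.055 at that threshold, -0.085 to 0.46 with 1 mouse left out), Stmn1 (-0.000377 with at least 10 cells a mouse) and, after thinning, Mia (0.76), and for the called Slc1a2 (-0.47 after thinning). The causes were not tested.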
